A study of Mus musculus with 12 samples.

Results

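Gene expression in neurons sorted from the cortex of mice after stroke was compared with that in sorted cortical neurons labelled P4. The comparison took all 6 libraries that the labels give as stroke or P4, 3 in each group, of the 12 libraries of the series, and all 23253 genes of the deposited table. Every mouse was C57BL/6 with no other genotype named. The stroke libraries came from adults in which a focal cortical lesion of 2 mm was made with rose bengal, a light-activated dye given 5 min before 15 min of cold light. The P4 libraries came from animals labelled as controls, and the labels do not spell out what P4 stands for. Their growth protocol describes every sample as adult, and the header of the first P4 column says P3, so the age of the P4 animals is not stated in words. The series also holds 3 adult control libraries and 3 from stroke with GDF10 siRNA, which shared the fit and whose levels are given beside some results. No source used here gives the time between stroke and tissue collection, the sorting marker, or whether libraries of a group came from separate animals or pools. The p-values therefore measure the spread between libraries of a group, estimated over all 12 libraries, and that spread may be technical.

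A young cortical neuron extends an axon behind a growth cone, a motile tip built on dynamic microtubules and a membrane rich in proteins such as GAP-43. As circuits mature, these genes decline and genes of synapses, ion channels and insulating myelin take over. After stroke, neurons beside the lesion can sprout axons again, in tissue that also holds myelin debris, interferon signalling, reactive glia and phagocytes. The series asks what role GDF10, a ligand of the TGF-beta family that cells secrete, has in that sprouting. The P4 libraries set the adult injured state beside another control state of cells that carry the same label, cortical neurons.

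Gdf10 itself (chromosome 14, 33923587 to 33936514, mm10) was lower in stroke than in P4. Its level, in CPM (counts per 1e6 counted reads), was 3.54, 4.78 and 2.09 CPM in P4 4, 5 and 6 and 0, 0.160 and 0 CPM in stroke 4, 5 and 6, where it rests on 5 counts in stroke 5. The groups did not overlap, with a log2 fold change, stroke minus P4, of -5.83 (standard error, SE, 1.89, edgeR quasi-likelihood adjusted p = 0.0432). The call was lost without any 1 library other than stroke 5 (adjusted p up to 0.135). In adult control Gdf10 was at 0.372 ± 0.324 CPM (mean ± SD, n = 3, as in all values of this form).

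The labelled cell type was checked against marker genes before other results. Total counts were 31525800, 30615708 and 18246470 in stroke 4, 5 and 6 and 48633350, 46028261 and 17544485 in P4 4, 5 and 6. The 14 pan-neuronal markers took 0.713 ± 0.0603% of counts in P4 and 0.223 ± 0.0313% in stroke, and all were detected in both groups. The 12 oligodendrocyte markers, which mark the glia that make myelin, took 0.0206 ± 0.0101% in P4 and 5.98 ± 0.641% in stroke. Stroke libraries labelled as neurons held abundant oligodendrocyte RNA, and in P4 no marker of that list was at 0 either. The 16 microglia and macrophage markers took 0.00366 ± 0.00104% in P4 and 0.0883 ± 0.0620% in stroke. The entry for the 45S ribosomal RNA precursor took 0.167 ± 0.171% in P4 and 2.22 ± 0.193% in stroke. Xist, the RNA of the inactive X chromosome, was at 3649, 2082 and 2045 CPM in P4 and 2.66, 3.97 and 2.50 CPM in stroke, so the groups were not matched for sex markers. Ddx3y, a gene of the Y chromosome, was at 0.0562, 33.5 and 148 CPM in P4 and 160, 116 and 133 CPM in stroke. The groups overlapped (log2 fold change 1.175, SE 1.17, edgeR adjusted p = 0.56). P4 4 held almost no Ddx3y, while P4 5 and P4 6 held both RNAs, so the P4 libraries also differed among themselves in sex markers. P4 6 had the fewest counts of the 6 libraries and the highest P4 share of oligodendrocyte markers. In bulk samples, fewer cells of a type and less RNA per cell cannot be told apart, and this holds for every result that follows.

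**Figure D1:**
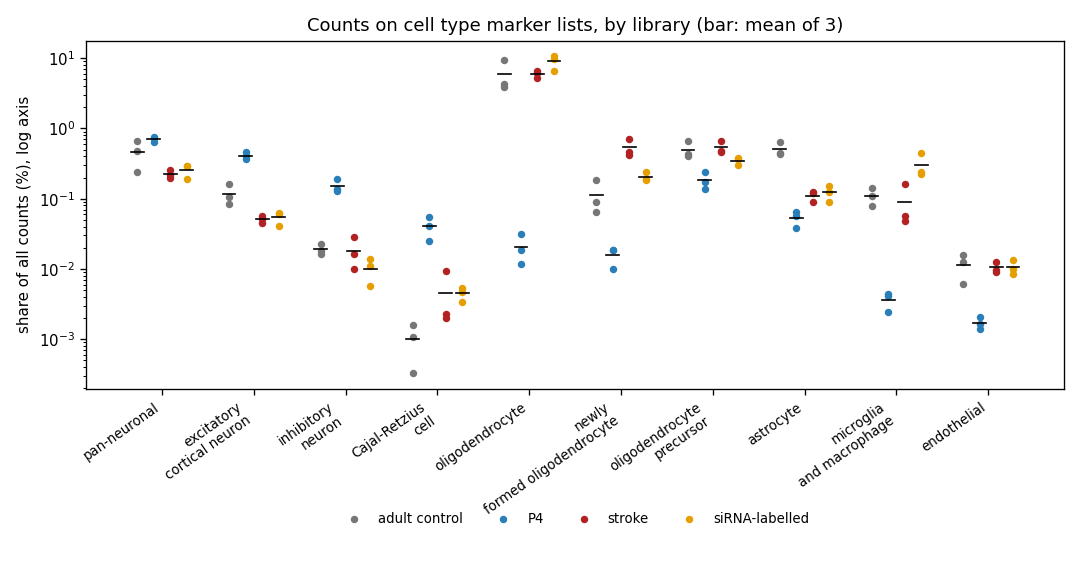
Share of all counts that fell on each cell type marker list, in percent on a log axis, in every library of the 4 groups; points are libraries and bars the mean of 3. Oligodendrocyte and microglia lists lie higher in all 3 stroke libraries than in all 3 P4 libraries, and neuron lists lie lower.

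Of 17909 genes tested, 3359 (18.8%) differed between stroke and P4 by the edgeR test at an adjusted p under 0.05. In stroke 1937 genes (10.8%) were higher and 1422 (7.94%) were lower. Counts of list members given below are to be read beside these shares. The median log2 fold change was 3.06 among higher genes, -2.43 among lower genes and -0.04 over all genes tested. That last median moved to -0.16 with DESeq2 size factors and to -0.20 with upper quartile scaling, so a gene's value can shift by about this much with the scaling. The 3 stroke and 3 P4 libraries were fully separate in 3343 of the 3359 genes, against 44.4% of all genes tested. The log2 fold change was over 5 in 364 genes and under -5 in 127. The authors' deposited table gave 3858 genes at a false discovery rate under 0.05, 2167 of them higher in stroke and 1691 lower, and 3309 of these were also called here. Leaving out 1 library at a time gave between 2401 and 2905 genes.

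**Figure D2:**
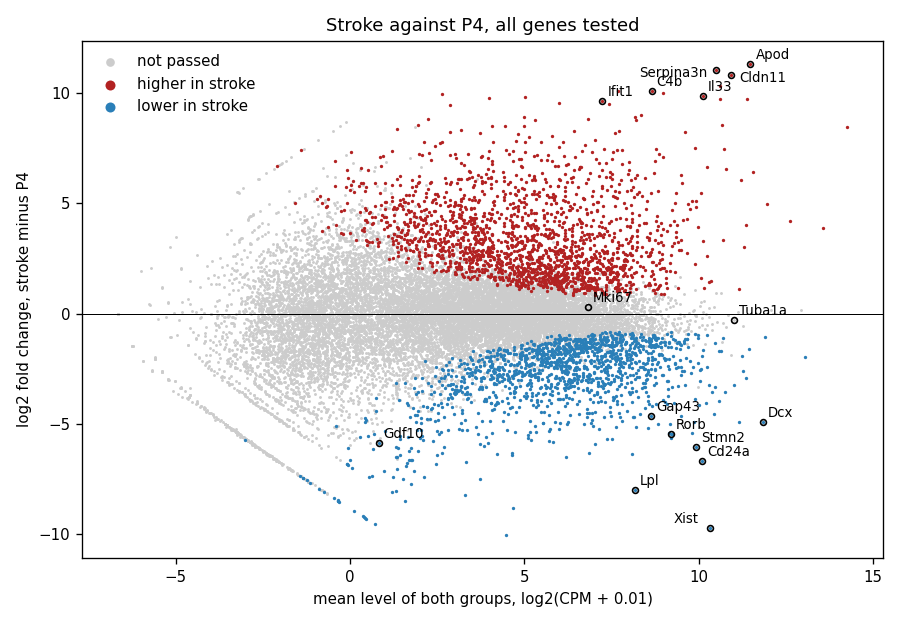
Log2 fold change, stroke minus P4, of each of the 17909 genes tested against its mean level, as log2 of CPM plus a small offset; red and blue points passed the test and grey points did not. Oligodendrocyte, interferon and injury genes such as Cldn11, Ifit1 and Serpina3n lie at the top, immature neuron genes such as Dcx, Stmn2 and Cd24a at the bottom, and Tuba1a and Mki67 near 0.

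Growth cone and immature neuron genes were mostly lower in stroke. Of the 28 on this list, all of them tested, 18 were lower and 1 was higher (median log2 fold change -3.12), against 7.94% and 10.8% of all genes. Gap43, a growth cone membrane protein (chromosome 16, 42248552 to 42340651), was at 644, 812 and 833 CPM in P4 4, 5 and 6. In stroke 4, 5 and 6 it was at 48.0, 18.2 and 27.3 CPM, below every P4 library (log2 fold change -4.61, SE 0.46, adjusted p = 5.3e-06). Stmn2, which loosens microtubules in growth cones, was at 1679, 1726 and 2309 CPM in P4 and 33.3, 29.1 and 25.1 CPM in stroke (log2 fold change -6.03, SE 0.57, adjusted p = 3.19e-06). In adult control Gap43 was at 20.3 ± 7.86 CPM and Stmn2 at 40.4 ± 21.6 CPM.

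The microtubule protein Dcx, a marker of migrating and newly formed neurons, was at 6875, 5454 and 9031 CPM in P4 and 268, 220.3 and 235 CPM in stroke (log2 fold change -4.88, SE 0.70, adjusted p = 0.000138). Cd24a, a surface glycoprotein of immature neurons, fell from 1715, 1234 and 3631 CPM in P4 to 38.2, 25.6 and 0.597 CPM in stroke, with stroke 6 far below the other stroke libraries (log2 fold change -6.67, SE 1.11, adjusted p = 0.000502). Sox11, a transcription factor of differentiating neurons, was at 986, 679 and 680.0 CPM in P4 and 89.2, 67.1 and 114 CPM in stroke (log2 fold change -3.12, SE 0.37, adjusted p = 2.37e-05). The collapsin response mediators Crmp1 and Dpysl3, which carry semaphorin signals to the cytoskeleton, had log2 fold changes of -5.41 and -4.55. The adhesion molecule L1cam was lower (log2 fold change -4.16), and so were the kinase Dclk1, a doublecortin relative (-3.56), and Nrep (-4.65). Stmn4, another stathmin, was the higher member (1.19, adjusted p = 0.0245), and its call was lost without any 1 library other than P4 5 (adjusted p up to 0.125). The pan-neuronal marker share was lower in stroke as well, 0.195 to 0.257% against 0.643 to 0.753% in P4, and its part in these falls was not tested.

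Some genes of young neurons did not differ between stroke and P4 beyond the spread of the libraries. Tuba1a, the main alpha tubulin of growing axons, was at 2722, 2912 and 1164 CPM in P4 and 1528, 1736 and 2362 CPM in stroke, and the groups overlapped (log2 fold change -0.27, SE 0.56, adjusted p = 0.802). In adult control it was at 287 ± 218 CPM. Marcksl1, an actin-binding protein of growth cones, was at 258, 248 and 189 CPM in P4 and 115, 147 and 202 CPM in stroke (log2 fold change -0.58, SE 0.52, adjusted p = 0.505), against 22.7 ± 16.5 CPM in adult control. Sox4, a close relative of Sox11, was at 63.9, 47.1 and 8.68 CPM in P4, with P4 6 low, and at 47.8, 34.5 and 62.1 CPM in stroke (log2 fold change 0.27, SE 0.66, adjusted p = 0.839), against 7.59 ± 5.55 CPM in adult control. The intervals of these differences are wide, so equal levels are not shown.

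Beta tubulins of young neurons lay between. Tubb2b was at 148, 209 and 115 CPM in P4 and 43.6, 35.4 and 94.7 CPM in stroke, without overlap, and did not pass (log2 fold change -1.44, SE 0.50, adjusted p = 0.0565). It passed in 8 of 19 alternatives, among them the DESeq2 test (adjusted p = 0.00939), limma-voom (adjusted p = 0.00456) and the edgeR fit without stroke 6 (adjusted p = 0.0283). Tubb3, another neuronal beta tubulin, was at 261, 340.0 and 59.4 CPM in P4 and 40.5, 50.9 and 47.2 CPM in stroke (log2 fold change -2.25, SE 0.85, adjusted p = 0.0815). It passed in 5 of 19 alternatives, among them the fit of these 6 libraries alone (edgeR adjusted p = 0.012) and that without P4 6 (edgeR adjusted p = 0.0418). Of the 12 tubulin genes, 2 were lower, among them Tubb2a (-3.04), and 1 was higher, or 25.0% called against 18.8% of all genes. The other lower gene was Tubb5 (-2.09), lost without any 1 library other than P4 6 (adjusted p up to 0.104). The higher gene was Tubb4a, a beta tubulin of oligodendrocytes and mature brain, at 645 ± 76.2 CPM in P4 and 11962 ± 2288 CPM in stroke (4.21, adjusted p = 1.34e-06).

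A few genes of this kind stood between adult control and P4, or above both. The 2 comparisons with adult control share the stroke or P4 libraries used here, and they called 0.704% (stroke) and 16.8% (P4) of all genes. No replicate number occurs both in adult control and in either of these groups. An effect of handling by number therefore cannot be told apart from group in any comparison with adult control. Adult control 3 had the fewest counts of the series (10517638). Its Pearson r with adult control 1 and 2 was 0.753 and 0.681, against 0.902 between those libraries. Its part in the shares called was not tested. Igfbpl1, an insulin-like growth factor binding protein made by young neurons, was at 29.9, 15.9 and 14.5 CPM in P4 and 2.42, 2.98 and 1.52 CPM in stroke, against 0.0347 ± 0.0406 CPM in adult control. It was lower in stroke than in P4 (log2 fold change -3.12, SE 0.83, adjusted p = 0.0147), a call lost without stroke 6 or P4 4 (adjusted p up to 0.123). Gng4, a gamma subunit of G proteins, was at 58.1, 79.7 and 77.0 CPM in P4 and 144, 137 and 219 CPM in stroke, where every library was higher (log2 fold change 1.22, SE 0.35, adjusted p = 0.0214), against 16.6 ± 3.66 CPM in adult control. That call was lost without stroke 4, stroke 6, P4 4 or P4 5 (adjusted p up to 0.131). Against adult control, the log2 fold change of Gng4 was 3.33 (adjusted p = 0.000636) in stroke and 2.12 (adjusted p = 0.000728) in P4.

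**Figure D3:**
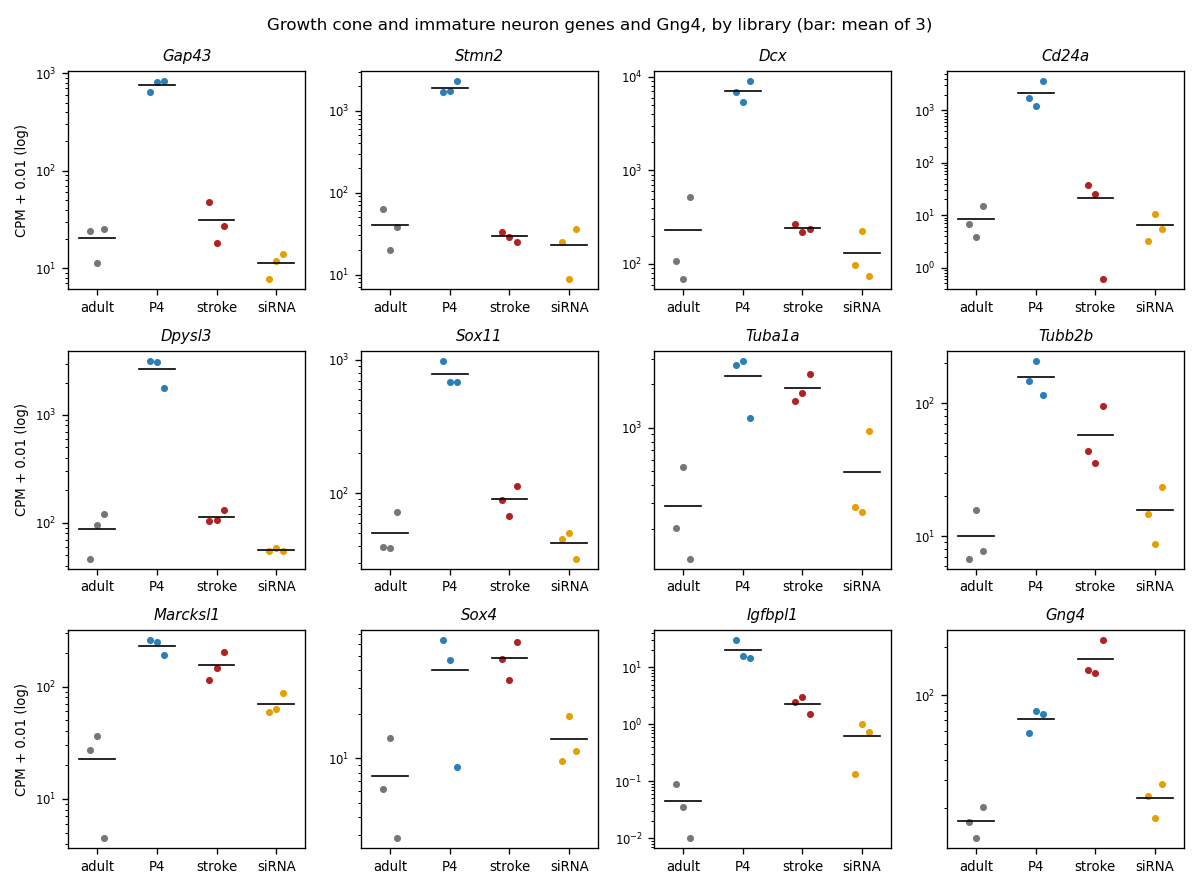
Levels of 11 growth cone and immature neuron genes and of Gng4 in every library, as CPM plus a small offset on a log axis; points are libraries and bars the mean of 3. Gap43, Stmn2, Dcx, Cd24a, Dpysl3 and Sox11 lie far below P4 in stroke, Tuba1a, Marcksl1 and Sox4 overlap with P4, and Gng4 lies above it.

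Transcription factors and transporters that define cortical neuron classes were lower in stroke. Of 15 excitatory cortical neuron markers 11 were lower and none was higher (median -3.72). Rorb, a nuclear receptor of layer IV neurons (chromosome 19, 18930609 to 19111196), was at 946, 623 and 1897 CPM in P4 and 34.2, 16.0 and 29.6 CPM in stroke (log2 fold change -5.44, SE 0.63, adjusted p = 2.12e-05). All P4 libraries lay above all stroke libraries. Of the 2 vesicular glutamate transporters of the cortex 1 passed, and whether their changes differ was not tested. Slc17a6, which is typical of the early cortex, was at 180.4, 182 and 321 CPM in P4 and 2.38, 4.90 and 1.25 CPM in stroke (log2 fold change -6.31, SE 0.62, adjusted p = 4.76e-06). Slc17a7, which is typical of the mature cortex, was at 22.2, 76.1 and 12.3 CPM in P4 and 50.1, 53.1 and 45.01 CPM in stroke, and the groups overlapped (log2 fold change 0.42, SE 0.58, adjusted p = 0.687). Of the lists described here as having no gene in a direction, none held more than 1 there by DESeq2 or limma-voom, or at an unadjusted p under 0.05, apart from those given with their own counts.

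Of 15 inhibitory neuron markers tested, of 16 on the list, 6 were lower and none was higher. Lhx6, a transcription factor of interneurons born in the ventral forebrain, was at 49.5, 54.2 and 44.1 CPM in P4 and 0.242, 1.02 and 0.434 CPM in stroke (log2 fold change -6.42, SE 1.36, adjusted p = 0.00333). Reln, the secreted guide of cortical layering, was at 753, 1417 and 921 CPM in P4 and 38.7, 167 and 26.6 CPM in stroke, with stroke 5 the highest of its group (log2 fold change -3.74, SE 0.66, adjusted p = 0.000804). Among 6 markers of Cajal-Retzius cells, transient neurons of the cortical surface, 3 were lower, including the transcription factor Ebf3 (-3.70) and the secreted protein Ndnf (-3.12). Of the 14 pan-neuronal markers, 7 were lower. Rbfox3, which encodes the NeuN antigen, was at 172, 163 and 101 CPM in P4 and 21.6, 22.7 and 20.6 CPM in stroke (log2 fold change -2.75, SE 0.43, adjusted p = 0.000287). Snap25 and Eno2, of the release machinery and of glycolysis in mature neurons, had log2 fold changes of -0.74 (adjusted p = 0.365) and 0.39 (adjusted p = 0.789) and overlapped between groups.

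Receptors and channels of neurons were lower in stroke in most cases that passed. Of 17 GABA and glycine receptor genes 10 were lower and none was higher (median -1.95), with 6 lower without stroke 5 or without P4 4 and 1 higher without P4 6. Gabra5, the alpha subunit of extrasynaptic GABA receptors, was at 163, 173 and 809 CPM in P4 and 13.6, 41.9 and 11.2 CPM in stroke (log2 fold change -4.10, SE 0.79, adjusted p = 0.0017). Glra2, the glycine receptor subunit of the developing brain, was at 65.0, 41.0 and 111 CPM in P4 and 1.31, 2.15 and 0.543 CPM in stroke (log2 fold change -5.74, SE 0.73, adjusted p = 4.82e-05).

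Among 16 ionotropic glutamate receptor genes, 3 (18.8%) were lower and none was higher. Of all genes, 7.94% were lower and 18.8% were called in either direction. Grin2b, the NMDA receptor subunit that predominates early in life, was at 296, 465 and 94.9 CPM in P4 and 35.4, 52.9 and 25.9 CPM in stroke, without overlap (log2 fold change -2.90, SE 0.58, adjusted p = 0.00223). Grin2a, the subunit that joins later, was at 25.5, 28.6 and 15.3 CPM in P4 and 13.01, 26.5 and 2.28 CPM in stroke and overlapped (log2 fold change -0.73, SE 0.77, adjusted p = 0.582). Gria2, the AMPA receptor subunit that blocks calcium entry, was lower (log2 fold change -1.66, adjusted p = 0.00173), and Gria3 was at -0.40 (adjusted p = 0.512). Of 7 metabotropic receptor genes, 3 were lower and 1 of these, Grm5 (-2.78), was lower in each fit that left out 1 library. Whether Grin2a and Grin2b, or Gria2 and Gria3, differ in their change was not tested.

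Of 20 sodium and calcium channel genes 12 were lower and none was higher (median -1.83). Scn3a, a sodium channel of developing neurons, and Scn2a1, one of axons, were lower (log2 fold changes -2.86 and -2.94). The N-type calcium channel gene Cacna1b was at 426, 453 and 544 CPM in P4 and 18.7, 42.8 and 4.56 CPM in stroke (log2 fold change -4.43, SE 0.65, adjusted p = 0.000184). Potassium and HCN channel genes went in both directions, with 5 of 26 higher and 7 lower, and 4 lower without stroke 5 or P4 5. Kcna1, a channel placed beside the nodes of myelinated axons, was at 26.7, 26.1 and 33.8 CPM in P4 and 1381, 1446 and 1033 CPM in stroke (log2 fold change 5.48, SE 0.32, adjusted p = 8e-08). Its partner Kcna2 was higher (log2 fold change 2.74), and so was Kcnj10, a potassium channel of glia (6.29). Hcn2, a pacemaker channel that oligodendrocytes also use, was higher (log2 fold change 4.44, adjusted p = 0.00242). Oligodendrocyte markers were higher in the same libraries, 5.28 to 6.54% against 0.0118 to 0.0317% of counts, and their part in the higher channel genes was not tested.

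Chloride transport differed in both of its main neuronal carriers. Slc12a2, the inward chloride carrier NKCC1 that also serves glia, was at 109, 112 and 150.2 CPM in P4 and 2247, 1850.5 and 1560.2 CPM in stroke (log2 fold change 3.93, SE 0.35, adjusted p = 1.72e-06), and at 2239 ± 604 CPM in adult control. Slc12a5, the outward carrier KCC2 of mature neurons, was at 95.4, 157 and 145 CPM in P4 and 43.6, 43.0 and 24.4 CPM in stroke (log2 fold change -1.84, SE 0.45, adjusted p = 0.00857), a call lost without stroke 6 (adjusted p = 0.0534). Of 24 vesicle release genes 11 were lower and none was higher (median -1.78). The synaptic calcium sensor Syt1 was at 903, 1355 and 1092 CPM in P4 and 246, 215 and 149 CPM in stroke (log2 fold change -2.46, SE 0.41, adjusted p = 0.000524), and the priming factor Unc13a, complexin Cplx2 and synapsin Syn3 were lower (log2 fold changes -3.02, -2.69 and -2.89). Of 24 postsynaptic scaffold genes 9 were lower, among them Shank2 (-3.44) and Dlg2 (-2.43), and 1 was higher. That gene was Dlg1, a scaffold of many cell types (2.34, adjusted p = 3.11e-05), while Dlg4, or PSD-95, did not pass (-1.58, adjusted p = 0.14).

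The axonal cytoskeleton list held 9 lower genes and 1 higher gene of 18. Map1b, a microtubule protein of growing axons, was at 12021, 12187 and 16421 CPM in P4 and 2969.5, 3025 and 4388 CPM in stroke (log2 fold change -1.97, SE 0.38, adjusted p = 0.00156). Map1a, its relative in mature neurons, was at 328, 477 and 192 CPM in P4 and 2178, 1537 and 1054 CPM in stroke, higher in all stroke libraries (log2 fold change 2.26, SE 0.47, adjusted p = 0.00287). The kinesin motor gene Kif5c was lower (log2 fold change -3.23, adjusted p = 3.52e-06). In adult control Map1b was at 1589 ± 835 CPM and Map1a at 845 ± 477 CPM.

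Guidance genes, whose products steer growing axons, went in both directions. Robo2, a receptor for slit repellents, was at 635, 732 and 631 CPM in P4 and 30.7, 54.4 and 17.8 CPM in stroke (log2 fold change -4.28, SE 0.48, adjusted p = 1.52e-05). Of 16 netrin, slit and robo genes, 3 were lower, namely Robo2, Robo1 (-2.47) and the netrin receptor Unc5d (-3.01), and 2 were higher. Unc5b, another netrin receptor, was at 5.07, 7.71 and 2.54 CPM in P4 and 179, 155 and 124 CPM in stroke (log2 fold change 4.89, SE 0.71, adjusted p = 0.000164). The other higher gene was netrin-1, Ntn1 (3.39), lost without each of the 6 libraries in turn (adjusted p up to 0.0962).

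Of 18 ephrin and Eph genes 6 were lower and 1 was higher (median -2.19). The receptor Epha3 was at 97.9, 70.8 and 68.8 CPM in P4 and 1.24, 3.78 and 0.760 CPM in stroke (log2 fold change -5.34, SE 0.86, adjusted p = 0.000405), and the ligand Efnb2 was lower (log2 fold change -4.45). Efnb3, a ligand present in myelin, was higher (log2 fold change 2.52, adjusted p = 0.00156). Of 25 semaphorin, plexin and neuropilin genes 7 were higher and 8 were lower, with 5 lower without stroke 5, stroke 6, P4 4 or P4 5. The repellent Sema3a was at 101, 99.0 and 226 CPM in P4 and 8.25, 8.49 and 8.69 CPM in stroke (log2 fold change -4.06, SE 0.62, adjusted p = 0.000263). Plxnb3, a plexin of oligodendrocytes, was at 4.42, 11.4 and 2.41 CPM in P4 and 504, 424 and 559 CPM in stroke (log2 fold change 6.34, SE 0.78, adjusted p = 3.67e-05), and Sema4d and Sema3d were higher (log2 fold changes 3.44 and 4.16).

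In the L1, NCAM and contactin list 7 of 16 genes were lower and 2 were higher, with 1 higher without stroke 4, stroke 5, P4 5 or P4 6. Besides L1cam, its relative Chl1 was at 2075, 2487 and 4045 CPM in P4 and 174, 194 and 192 CPM in stroke (log2 fold change -3.94, SE 0.55, adjusted p = 0.000119). Nfasc, whose isoforms sit at nodes of Ranvier on both the axon and the glial side, was at 323, 414 and 171 CPM in P4 and 6008, 4023 and 4797 CPM in stroke (log2 fold change 4.03, SE 0.53, adjusted p = 6.55e-05). Of 14 chondroitin proteoglycan and perineuronal net genes 5 were higher and 3 were lower. Without any 1 library other than P4 5, 3 genes were higher, and without stroke 5, stroke 6, P4 4 or P4 6 at most 1 gene was lower. Tnr, the matrix protein tenascin-R, was at 121, 145 and 55.1 CPM in P4 and 1143, 964 and 1506 CPM in stroke (log2 fold change 3.49, SE 0.46, adjusted p = 7.11e-05). The link protein gene of nodes, Hapln2, and the proteoglycan gene Bcan were higher (log2 fold changes 7.38 and 3.40). Among collagen, laminin and integrin genes, 5 of 23 were higher and 2 lower, against 10.8% and 7.94% of all genes, so the lower count was near that of all genes. Laminin Lamc1 (3.09) and integrin Itgav (4.58) were higher, and fibronectin Fn1 (-3.26) and laminin Lamb1 (-3.16) were lower.

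Among inhibitors of axon growth, the myelin protein Mag was higher in stroke and the gene of Nogo did not pass. Of 17 genes of the Nogo receptor and growth inhibition list, 4 were higher and 1 was lower, with 0 lower without stroke 4, 5 or 6. Mag, a myelin glycoprotein that stops growth cones, was at 0.880, 2.04 and 1.01 CPM in P4 and 776, 552 and 453 CPM in stroke (log2 fold change 8.80, SE 0.93, adjusted p = 8.99e-06). Rtn4, which encodes Nogo, was at 2746, 2543 and 6866 CPM in P4 and 5682, 4600.0 and 3594 CPM in stroke, and the groups overlapped (log2 fold change 0.19, SE 0.38, adjusted p = 0.791). Socs3, which limits STAT3 signalling and is counted on this list for its brake on regrowth, was among the higher genes and is described with the injury genes.

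All 12 oligodendrocyte markers were higher in stroke, with log2 fold changes from 6.52 to 10.82 (median 8.63), against 10.8% of all genes. Mbp, the myelin basic protein, was at 29.9, 54.1 and 27.9 CPM in P4 and 3484, 3284 and 3780.0 CPM in stroke (log2 fold change 6.56, SE 0.45, adjusted p = 1.94e-07). Cldn11, the tight junction protein of myelin, was at 1.42, 1.70 and 3.49 CPM in P4 and 3410.1, 4285 and 4005 CPM in stroke (log2 fold change 10.82, SE 0.50, adjusted p = 2.24e-08). No stroke library overlapped with a P4 library. In adult control Mbp was at 1697 ± 746 CPM and Cldn11 at 833 ± 199 CPM. Stroke minus adult control called 1 of the 12 markers, with a median log2 fold change of 0.465 over the list. The list took 5.87 ± 3.09% of counts in adult control and 5.98 ± 0.641% in stroke.

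Earlier stages of the lineage were higher too. All 6 markers of newly formed oligodendrocytes were higher (median 5.17). Enpp6, an enzyme of oligodendrocytes that have just begun to differentiate, was at 12.95, 28.1 and 122 CPM in P4 and 1630.5, 1413 and 2657 CPM in stroke (log2 fold change 5.13, SE 0.70, adjusted p = 9.39e-05), against 192 ± 46.2 CPM in adult control. Gpr17, a receptor that times their maturation, was at 21.1, 41.2 and 7.99 CPM in P4 and 1407, 1148 and 1766 CPM in stroke (log2 fold change 5.94, SE 0.81, adjusted p = 8.84e-05), against 328 ± 311 CPM in adult control. Of 10 precursor markers 9 were higher (median 3.17). Sox10, the lineage's transcription factor, was at 7.11, 12.1 and 11.5 CPM in P4 and 964, 683 and 876 CPM in stroke (log2 fold change 6.36, SE 0.51, adjusted p = 6.95e-07), and Pdgfra, the growth factor receptor of precursors, at 53.2, 99.2 and 93.9 CPM and 312, 291 and 449 CPM (log2 fold change 2.09, SE 0.40, adjusted p = 0.0017). Vcan, a proteoglycan, was the marker that did not pass (0.34, adjusted p = 0.589). Precursor markers took 0.139 to 0.238% of counts in P4 and 0.463 to 0.670% in stroke.

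Several of the largest differences in the whole comparison were in genes that oligodendrocytes or their injured form make. Apod, a lipid-binding protein, was at 1.61, 1.47 and 3.87 CPM in P4 and 7192, 5935 and 4126 CPM in stroke, the largest log2 fold change among the genes named here (log2 fold change 11.32, SE 0.68, adjusted p = 8.42e-08). In adult control it was at 653 ± 302 CPM. Trf, the iron carrier transferrin, was at 4.77, 8.30 and 5.45 CPM in P4 and 6475, 6135 and 3461 CPM in stroke (log2 fold change 9.76, SE 0.88, adjusted p = 2.25e-06). Klk6, a protease of myelinating cells, was at 0.112, 0.0595 and 1.27 CPM in P4 and 444, 550.3 and 254 CPM in stroke (log2 fold change 10.11, SE 1.07, adjusted p = 9.03e-06), and at 18.2 ± 7.13 CPM in adult control. Il33, a nuclear alarm cytokine, was at 0.898, 1.11 and 5.45 CPM in P4 and 2991, 2149.6 and 1521 CPM in stroke (log2 fold change 9.87, SE 0.75, adjusted p = 4.48e-07). Nkx6-2, a transcription factor of myelinating cells, was at 0.0187, 0.0595 and 0 CPM in P4 and 26.7, 40.0 and 29.0 CPM in stroke (log2 fold change 9.77, SE 0.83, adjusted p = 1.28e-06).

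Interferon response genes, which cells switch on when interferon binds its receptor, were higher in stroke. Of the 30 on the list, all tested, 25 were higher and none was lower (median log2 fold change 5.62), against 10.8% and 7.94% of all genes. Ifit1, which binds foreign RNA (chromosome 19, 34640889 to 34650009), was at 0.225, 0.396 and 0.570 CPM in P4 and 248, 267 and 392 CPM in stroke (log2 fold change 9.64, SE 0.79, adjusted p = 8.83e-07). Usp18, which shuts the interferon receptor down again, was at 0.131, 0.178 and 0.254 CPM in P4 and 88.6, 74.1 and 75.6 CPM in stroke (log2 fold change 8.77, SE 1.04, adjusted p = 2.7e-05). In adult control Ifit1 was at 0.587 ± 0.516 CPM and Usp18 at 0.758 ± 0.827 CPM.

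Other members are given here, of which Isg15 did not pass. Oasl2, an antiviral effector, was at 0.599, 1.39 and 1.46 CPM in P4 and 317, 265 and 206 CPM in stroke (log2 fold change 7.86, SE 0.74, adjusted p = 3.33e-06). Rsad2, or viperin, which blocks viral replication, was at 0.0562, 0.277 and 0 CPM in P4 and 43.3, 67.3 and 81.5 CPM in stroke (log2 fold change 8.90, SE 1.09, adjusted p = 3.44e-05). Isg15, a ubiquitin-like protein, was at 0.225, 0.119 and 0.507 CPM in P4 and 4.73, 2.53 and 2.39 CPM in stroke (log2 fold change 3.52, SE 1.25, adjusted p = 0.0653). No stroke library overlapped with a P4 library in these genes. Irf7, which amplifies the response, was higher (log2 fold change 3.88, adjusted p = 0.0262), and its call was lost without any 1 library other than P4 4 (adjusted p up to 0.0915). Adult control 1, 2 and 3 held 3.93, 4.24 and 9.44% of their counts on oligodendrocyte markers. They held 0.110, 0.140 and 0.0799% on microglia and macrophage markers, with Ifit1 and Usp18 at the low levels given above. The part of glial content in the interferon results was not tested. Stroke minus adult control, which shares the stroke libraries, gave Ifit1 a log2 fold change of 8.80 (adjusted p = 9.73e-05).

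The promoters of 3 of these genes are shown because they carry the letters that interferon-activated factors are known to bind, GAAA, any 2 bases and GAAA again, read on either strand, and that of Oasl2 because it does not. The sequences are RefSeq promoters of GRCm38.p6, from 250 bases before to 50 after the gene start, on the gene's strand, with matches in capitals.
Ifit1, chr19:34640639-34640938 (+ strand): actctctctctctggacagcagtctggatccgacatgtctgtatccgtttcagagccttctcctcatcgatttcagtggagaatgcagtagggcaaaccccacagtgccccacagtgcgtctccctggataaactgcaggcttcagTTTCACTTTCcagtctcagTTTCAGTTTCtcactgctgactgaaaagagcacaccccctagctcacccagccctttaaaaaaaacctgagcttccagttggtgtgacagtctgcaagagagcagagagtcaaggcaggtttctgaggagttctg
Isg15, chr4:156200769-156201068 (- strand): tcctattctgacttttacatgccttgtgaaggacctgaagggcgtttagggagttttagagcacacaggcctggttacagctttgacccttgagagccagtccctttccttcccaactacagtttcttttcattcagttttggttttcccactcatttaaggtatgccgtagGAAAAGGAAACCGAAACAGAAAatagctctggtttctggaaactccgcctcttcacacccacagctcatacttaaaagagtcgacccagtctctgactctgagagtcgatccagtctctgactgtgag
Rsad2, chr12:26456403-26456702 (- strand): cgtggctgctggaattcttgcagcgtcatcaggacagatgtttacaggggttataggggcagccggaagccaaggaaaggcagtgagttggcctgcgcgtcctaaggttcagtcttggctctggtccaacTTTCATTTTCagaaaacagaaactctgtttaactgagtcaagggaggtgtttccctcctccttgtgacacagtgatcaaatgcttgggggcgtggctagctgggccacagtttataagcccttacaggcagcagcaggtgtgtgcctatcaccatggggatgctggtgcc
Oasl2, chr5:114896684-114896983 (+ strand): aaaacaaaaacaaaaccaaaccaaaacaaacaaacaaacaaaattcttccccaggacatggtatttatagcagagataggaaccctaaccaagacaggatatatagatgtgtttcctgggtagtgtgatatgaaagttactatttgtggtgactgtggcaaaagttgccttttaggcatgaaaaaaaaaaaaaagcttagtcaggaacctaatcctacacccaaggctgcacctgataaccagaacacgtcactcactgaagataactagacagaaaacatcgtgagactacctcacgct
In Ifit1 the matches start 104 and 85 bases before the gene start, and in Isg15 3 matches overlap within the run that starts 78 bases before it. The motif stood in 54.5% of 22 promoters of 19 genes of the interferon list that have an entry. It stood in 3.44% of all 32851 RefSeq promoters and in 3.19% of the 17287 promoters of genes tested. The share was 4.45% in promoters of genes higher in stroke and 2.54% in those of genes lower in stroke. A match describes the letters of the promoter and is not a measured binding site.

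Antigen presentation and complement were higher in stroke than in P4. Of 14 MHC class I presentation genes 11 were higher and none was lower (median 5.02). B2m, the light chain of every MHC class I molecule, was at 17.0, 22.6 and 115 CPM in P4, with P4 6 above the others, and 1683, 1678 and 1921 CPM in stroke (log2 fold change 5.10, SE 0.70, adjusted p = 0.000104). H2-K1, a heavy chain, was at 1.93, 3.03 and 1.71 CPM in P4 and 138, 183 and 163 CPM in stroke (log2 fold change 6.17, SE 0.53, adjusted p = 1.34e-06), though reads of H2 genes may be shared between close copies. Of 16 complement genes tested, of 17 on the list, 10 were higher and none was lower. Stroke minus adult control called 1 complement gene, with a median log2 fold change of -0.0885 over the list. The median of P4 minus adult control was -2.94. C4b, a complement factor made by reactive glia, was at 0.374, 0.456 and 1.58 CPM in P4 and 924, 865 and 625 CPM in stroke (log2 fold change 10.097, SE 0.79, adjusted p = 6.78e-07), and at 9.06 ± 3.59 CPM in adult control. The part in these results of the microglia markers, 0.0479 to 0.160% of counts in stroke and 0.00247 to 0.00439% in P4, was not tested.

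Genes of the acute injury response stood above P4 in stroke. Serpina3n, a protease inhibitor induced in injured glia (chromosome 12, 104406646 to 104414334), was at 1.20, 1.05 and 1.96 CPM in P4 and 2809, 3493 and 2344 CPM in stroke (log2 fold change 11.03, SE 0.77, adjusted p = 2.14e-07), and at 15.5 ± 10.6 CPM in adult control. Stat3, the transcription factor of gliosis and axon regrowth, was at 11.7, 17.95 and 6.78 CPM in P4 and 192, 183 and 182 CPM in stroke (log2 fold change 3.93, SE 0.57, adjusted p = 0.000163). Its feedback inhibitor Socs3 was at 2.06, 2.60 and 0.507 CPM in P4 and 165, 97.1 and 165 CPM in stroke (log2 fold change 6.33, SE 1.04, adjusted p = 0.000457). Cebpd, a transcription factor of acute inflammation, was at 0.187, 0.317 and 0.190 CPM in P4 and 22.1, 21.4 and 19.3 CPM in stroke (log2 fold change 6.45, SE 1.00, adjusted p = 0.000294). Every stroke library was above every P4 library in all 4 genes. Of 11 reactive astrocyte genes tested, of 12 on the list, 5 were higher and none was lower, with 3 higher without P4 4. Stroke minus adult control gave Serpina3n a log2 fold change of 7.53 (adjusted p = 9.73e-05).

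**Figure D4:**
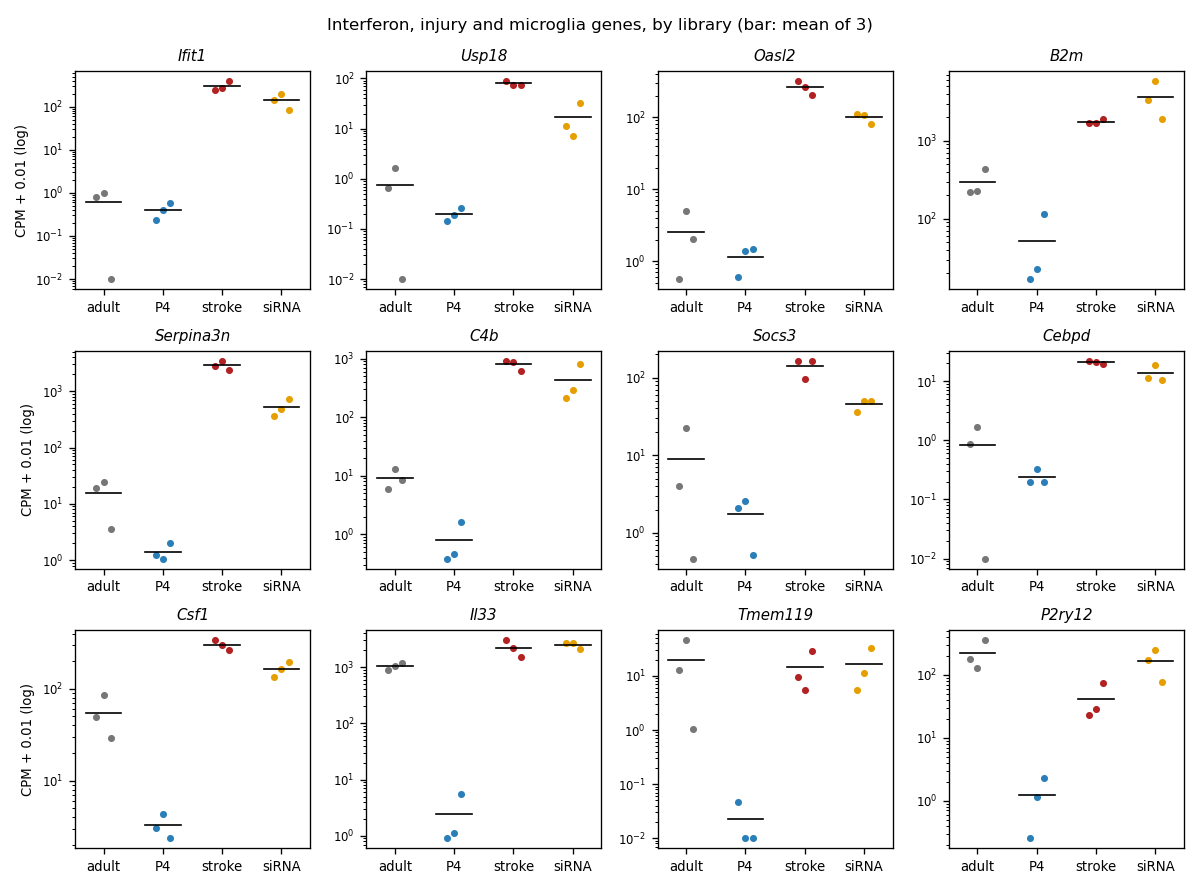
Levels of 12 interferon, antigen presentation, injury, cytokine and microglia genes in every library, as CPM plus a small offset on a log axis; points are libraries and bars the mean of 3. The 3 stroke libraries lie above the 3 P4 libraries in every panel. Levels in adult control also lie above P4 in several panels, among them B2m, C4b, Csf1, Il33, Tmem119 and P2ry12.

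Microglia and macrophage markers, the genes of the brain's resident phagocytes, were higher throughout, 16 of 16 (median 5.27). P2ry12, a purine receptor of resting microglia, was at 0.243, 1.13 and 2.28 CPM in P4 and 22.6, 28.7 and 73.6 CPM in stroke (log2 fold change 5.17, SE 0.79, adjusted p = 0.000259), against 219.8 ± 118 CPM in adult control. Cx3cr1, their chemokine receptor, was at 0.243, 0.178 and 0.570 CPM in P4 and 22.5, 24.2 and 53.4 CPM in stroke (log2 fold change 6.79, SE 0.63, adjusted p = 3.07e-06), against 56.0 ± 2.62 CPM in adult control. Tmem119, a microglia-specific membrane protein, had 2 counts in P4 and 978 in stroke, a ratio of 744 (95% interval 206 to 6160.0, counting error only). Stroke 6 held more of these markers than stroke 4 and 5, at 0.0479, 0.0572 and 0.160% of counts in stroke 4, 5 and 6. Lyz2, a lysozyme of myeloid cells and the 1 of 4 monocyte and neutrophil markers that was higher, was at 0.524, 5.49 and 0.697 CPM in P4 and 522, 347 and 249 CPM in stroke (log2 fold change 7.34, SE 1.11, adjusted p = 0.000227).

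Of 21 cytokine and chemokine genes tested, of 22 on the list, 14 were higher and none was lower (median 3.67). Csf1, the growth factor of microglia, was at 3.03, 4.36 and 2.34 CPM in P4 and 338, 297 and 265 CPM in stroke (log2 fold change 6.52, SE 0.48, adjusted p = 3.9e-07), and at 54.6 ± 28.8 CPM in adult control. Spp1, or osteopontin, was at 0.749, 0.595 and 0.697 CPM in P4 and 68.6, 76.5 and 16.9 CPM in stroke (log2 fold change 6.30, SE 0.89, adjusted p = 0.00012). The chemokine Ccl12 was at 0.0187, 0.139 and 0.254 CPM in P4 and 5.83, 7.56 and 35.9 CPM in stroke, where stroke 6 was the highest (log2 fold change 7.04, SE 1.08, adjusted p = 0.000272). Interleukin 1 beta, Il1b, was at 0.187, 0.238 and 0.0634 CPM in P4 and 0.621, 2.69 and 11.08 CPM in stroke (log2 fold change 4.75, SE 1.11, adjusted p = 0.00685). Stroke 6, the library with most microglia markers, was also the highest for Ccl12 and Il1b, and was not so for Csf1 or Spp1. The part of microglia content in the levels of these 4 genes was not tested.

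Astrocyte markers took 0.0383 to 0.0636% of counts in P4 and 0.0883 to 0.124% in stroke, without overlap. Of 12, 2 (16.7%) passed as higher, against 10.8% of all genes, and none was lower (median 0.70). At an unadjusted p under 0.05, 5 were higher. Without P4 6, 4 passed as higher. The intermediate filament gene Gfap was at 0.861, 1.70 and 1.27 CPM in P4 and 30.2, 14.03 and 37.6 CPM in stroke (log2 fold change 4.41, SE 0.73, adjusted p = 0.000501), and S100b, which oligodendrocytes also express, at 2.12, 4.10 and 2.03 and 359, 252 and 349 CPM (log2 fold change 6.85, SE 0.62, adjusted p = 2.07e-06). Aqp4, the water channel of astrocyte endfeet, was at 22.8, 33.2 and 109.6 CPM in P4 and 109.5, 66.4 and 75.0 CPM in stroke and overlapped (log2 fold change 0.60, SE 0.54, adjusted p = 0.509), and it passed without P4 6 (log2 fold change 1.57, edgeR adjusted p = 0.0397). Slc1a2, the astrocytic glutamate transporter, was at 223, 424 and 325 CPM in P4 and 673, 388 and 628 CPM in stroke (log2 fold change 0.80, SE 0.34, adjusted p = 0.132), against 4129 ± 876 CPM in adult control. Endothelial markers had 1 of 12 tested higher (8.33%, against 10.8% of all genes), the glucose transporter Slc2a1 (4.68, adjusted p = 7.28e-06). None of 7 lymphocyte and 7 fibroblast markers passed. At an unadjusted p under 0.05 the latter lists held 1 and 0 genes, and DESeq2 and limma-voom called 0 in both.

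Immediate early genes, which both neuronal activity and tissue handling induce within minutes, were mostly higher in stroke. Of 20, 13 were higher and 2 were lower (median 2.28). Fos was at 112, 101 and 232 CPM in P4 and 759.5, 727 and 925 CPM in stroke (log2 fold change 2.44, SE 0.40, adjusted p = 0.000481), and Zfp36, an RNA-decay factor, at 2.41, 3.19 and 2.85 CPM and 354, 260.5 and 481 CPM (log2 fold change 7.01, SE 0.45, adjusted p = 1.32e-07). Arc, a synaptic gene of active neurons, was at 1.70, 1.98 and 0.887 CPM in P4 and 67.5, 70.1 and 56.7 CPM in stroke (log2 fold change 5.38, SE 0.50, adjusted p = 3.07e-06), and at 68.3 ± 17.6 CPM in adult control. The 2 lower members are transcription factors used by neurons. Npas4, which answers calcium entry, was at 99.3, 99.7 and 32.9 CPM in P4 and 1.10, 3.08 and 2.71 CPM in stroke (log2 fold change -5.07, SE 0.76, adjusted p = 0.000223), and Nr4a2, an orphan nuclear receptor, at 163, 145 and 88.3 CPM and 7.56, 21.6 and 10.21 CPM (log2 fold change -3.33, SE 0.63, adjusted p = 0.00142). Of 18 injury and regeneration transcription factors 7 were higher and 2 were lower, with 1 lower without any 1 library other than P4 5. Atf3, which marks injured neurons and stressed glia, was at 0.936, 3.15 and 1.27 CPM in P4 and 93.2, 52.5 and 104 CPM in stroke (log2 fold change 5.53, SE 0.68, adjusted p = 3.63e-05), and Jun was higher (log2 fold change 2.11). In adult control Atf3 was at 45.9 ± 35.9 CPM, and stroke minus adult control gave it a log2 fold change of 0.86 (edgeR adjusted p = 0.474). Klf7, a factor that promotes axon growth, was at -1.17 in stroke minus P4 and did not pass (adjusted p = 0.0695).

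No gene of the S phase list or of the G2 and mitosis list passed the test. None of 18 S phase genes and none of 21 G2 and mitosis genes passed in the edgeR test, with medians of 0.40 and 0.82, against -0.04 over all genes, and ranges from -2.52 to 2.05 and from -0.34 to 2.33. Equal levels are not shown. At an unadjusted p under 0.05 there were 2 and 1 of them, DESeq2 called 2 and 0, and limma-voom called 1 and 0. Mki67, which marks dividing cells, was at 35.5, 40.7 and 228 CPM in P4, with P4 6 high, and 110.0, 159 and 107 CPM in stroke (log2 fold change 0.31, SE 0.82, adjusted p = 0.855). Top2a, which untangles chromosomes, was at 22.8, 26.9 and 42.7 CPM in P4 and 51.8, 77.1 and 50.8 CPM in stroke, where every library was above P4, and did not pass (log2 fold change 0.96, SE 0.43, adjusted p = 0.15). Of 6 inhibitors of cyclin-dependent kinases tested, of 7 on that list, 2 were higher and none was lower, against 10.8% and 7.94% of all genes. Neither of the 2 was called in every fit that left out 1 library. None of 32 nuclear oxidative phosphorylation genes passed by edgeR (4 at an unadjusted p under 0.05, 2 by DESeq2 and 2 by limma-voom). Of 36 ribosomal protein genes, Rpl15 was lower (-1.91, adjusted p = 0.00349).

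**Figure D5:**
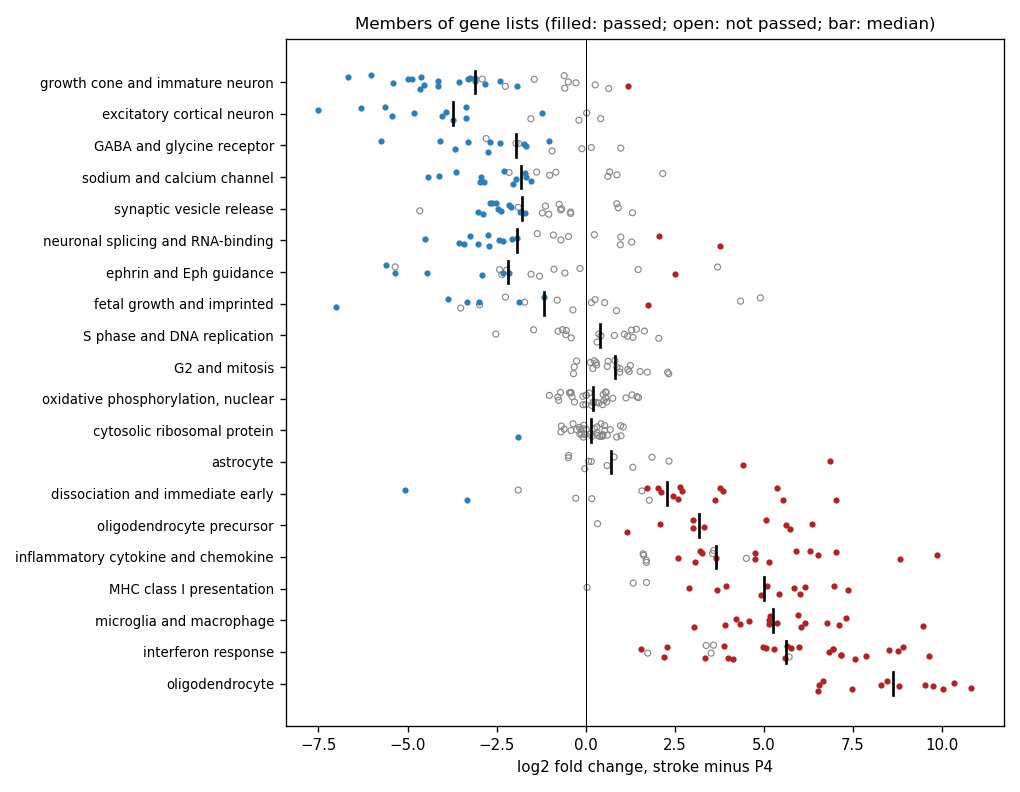
Log2 fold change, stroke minus P4, of the tested members of 20 gene lists; filled points passed the test, open points did not, and bars mark the median of each list. Neuronal lists lie to the left and immune, interferon and oligodendrocyte lists to the right, the medians of ribosomal and respiratory lists lie near 0, and most G2 and mitosis genes lie above 0 with none passed.

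Genes of fetal growth and imprinting held 6 lower members and 1 higher of 19 tested, of 20 on the list, with 3 lower without P4 5 and 0 higher without stroke 6, P4 4 or P4 5. Meg3, a maternally expressed noncoding RNA of neurons, was at 1892, 2127 and 1299.5 CPM in P4 and 146, 155 and 66.6 CPM in stroke (log2 fold change -3.86, SE 0.47, adjusted p = 3.58e-05). Ndn, a paternally expressed gene of postmitotic neurons, was at 68.2, 83.5 and 264 CPM in P4 and 18.9, 12.4 and 9.56 CPM in stroke (log2 fold change -3.34, SE 0.54, adjusted p = 0.000416). Lin28b, an RNA-binding protein of early development, was at 6.61, 3.47 and 6.34 CPM in P4 and 0.104, 0.993 and 0.326 CPM in stroke without overlap and did not pass (log2 fold change -3.51, SE 1.49, adjusted p = 0.125).

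Genes of the Gdf10 family went in both directions. They were called in 33.3% of ligands and antagonists and 28.0% of receptors, SMADs and targets, against 18.8% of all genes. Of 15 TGF-beta family ligands and antagonists tested, of 16 on the list, 3 were higher and 2, Gdf10 and Inhba, were lower, with 1 lower without any 1 library other than stroke 5 or 6. Inhba, the subunit of activin A, was at 179, 91.2 and 103 CPM in P4 and 4.32, 4.61 and 0.977 CPM in stroke (log2 fold change -5.23, SE 0.67, adjusted p = 5e-05). Bmp4, a growth factor made by newly formed oligodendrocytes, was at 2.68, 5.05 and 8.56 CPM in P4 and 218, 119.6 and 269 CPM in stroke (log2 fold change 5.23, SE 0.51, adjusted p = 4.24e-06), and was the 1 higher ligand in each fit that left out 1 library. Of 25 receptors, SMADs and target genes tested, of 27 on the list, 3 were higher and 4 were lower, with 2 lower without stroke 5, P4 4 or P4 6. Tgfbr2, the receptor that binds TGF-beta, was at 0.206, 1.66 and 0.570 CPM in P4 and 13.7, 15.8 and 38.6 CPM in stroke (log2 fold change 4.77, SE 0.90, adjusted p = 0.00143). Acvr2a, an activin receptor, was at 195, 240.4 and 430.1 CPM in P4 and 62.5, 61.8 and 73.7 CPM in stroke (log2 fold change -2.13, SE 0.46, adjusted p = 0.0036). Smad7, the inhibitory SMAD, was at 8.01, 6.32 and 4.94 CPM in P4 and 118, 90.3 and 67.6 CPM in stroke (log2 fold change 3.84, SE 0.40, adjusted p = 8.23e-06).

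Of 22 neurotrophin and growth factor genes tested, of 24 on the list, 4 were higher and 4 were lower. Fgf1 was at 1.46, 1.74 and 6.59 CPM in P4 and 265, 216 and 184 CPM in stroke (log2 fold change 6.13, SE 0.59, adjusted p = 3.7e-06), and the receptors Fgfr2 and Erbb3, both used by oligodendrocytes, were higher (log2 fold changes 5.35 and 5.29). Fgf13, a partner of sodium channels, was at 173, 169 and 297 CPM in P4 and 6.80, 17.6 and 0.706 CPM in stroke (log2 fold change -4.67, SE 0.90, adjusted p = 0.0016), and Nrg3, a ligand of neurons for Erbb4, was lower (log2 fold change -3.47). Bdnf was at 2.73, 4.91 and 10.6 CPM in P4 and 6.46, 9.90 and 17.5 CPM in stroke and did not pass (log2 fold change 0.90, SE 0.82, adjusted p = 0.52), and Igf1 at -2.34 did not either (adjusted p = 0.0789).

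RNA-binding proteins that shape neuronal splicing were lower. Of 21 such genes tested, of 22 on the list, 11 were lower and 2 were higher (median -1.92), with 1 higher without any 1 library other than P4 6. Celf2, a regulator of splicing and message stability, was at 2334, 2033 and 3018 CPM in P4 and 159, 266 and 203 CPM in stroke (log2 fold change -3.56, SE 0.49, adjusted p = 0.000109). The neuronal splicing factors Srrm4 and Rbfox1 were lower (log2 fold changes -3.25 and -3.42), and so was Elavl2, which stabilises neuronal messages (-4.51). Mbnl2, which promotes adult splicing patterns, was at 33.4, 49.1 and 98.7 CPM in P4 and 827, 910.3 and 754 CPM in stroke (log2 fold change 3.78, SE 0.57, adjusted p = 0.000227). Of 21 BAF chromatin remodelling subunits 6 were lower and 1 was higher. The pair Ss18 and Ss18l1, which exchange when progenitors become neurons, went apart. Ss18, the subunit of dividing cells, was at 10.5, 12.17 and 23.8 CPM in P4 and 105, 101 and 109.5 CPM in stroke (log2 fold change 2.77, SE 0.43, adjusted p = 0.000272), and Ss18l1, the neuronal subunit, at 220.3, 188 and 116 CPM and 36.4, 33.9 and 53.9 CPM (log2 fold change -2.08, SE 0.40, adjusted p = 0.00151).

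Some metabolic lists were called above the 18.8% of all genes, with 26.3% of cholesterol synthesis, 27.8% of glycolysis and 60.0% of iron genes. The nuclear oxidative phosphorylation list, described above, had none called. Of 19 cholesterol synthesis genes 5 were lower and none was higher, with 3 lower without stroke 5, stroke 6 or P4 5. Hmgcs1, an early enzyme of the pathway, was at 652, 710.2 and 1433 CPM in P4 and 176, 161 and 207 CPM in stroke (log2 fold change -2.36, SE 0.36, adjusted p = 0.000222). Of 10 iron genes 5 were higher, against 10.8% of all genes, and 1 was lower. Besides Trf, the ferritin heavy chain Fth1 was at 161, 164 and 299.5 CPM in P4 and 1698, 2428 and 2024 CPM in stroke (log2 fold change 3.299, SE 0.37, adjusted p = 1.67e-05). Of 18 glycolysis genes 3 were higher and 2 were lower. Without stroke 4, P4 4 or P4 6 no glycolysis gene was higher, without stroke 5 or 6 there was 1, and without any 1 library other than P4 6 there was 1 lower. Pfkp, a phosphofructokinase, was lower (log2 fold change -3.51, adjusted p = 2.12e-05) and also in each fit that left out 1 library.

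Among the largest lower genes, several lie outside the lists. Lpl, the lipoprotein lipase, was at 272, 241 and 1225 CPM in P4, where P4 6 was the highest, and 3.49, 2.72 and 0.597 CPM in stroke (log2 fold change -7.97, SE 1.06, adjusted p = 7.5e-05). Gjc1, a connexin of gap junctions between early neurons, was at 71.4, 44.6 and 36.8 CPM in P4 and 0.0345, 0.224 and 0.0543 CPM in stroke (log2 fold change -8.81, SE 1.52, adjusted p = 0.000713). Ptger3, a prostaglandin E receptor, was at 15.4, 16.2 and 26.9 CPM in P4 and 0, 0.128 and 0.0543 CPM in stroke (log2 fold change -8.19, SE 1.53, adjusted p = 0.00131), where the stroke level rests on 5 counts. Klhl14 was lower (log2 fold change -7.50, adjusted p = 0.00148). In each of these genes the adult control level was also low, 6.15, 0.539, 0.550 and 0.448 CPM in the order given. Tfr2, a transferrin receptor relative, is on a list and was the 1 lower gene among the iron genes above. Its adult control mean, 11.06 ± 17.1 CPM, was as high as P4, at 9.53, 11.4 and 5.197 CPM. In stroke Tfr2 was at 0.0690, 0.0641 and 0 CPM (log2 fold change -7.38, SE 1.49, adjusted p = 0.00237). That adult control mean rests on adult control 3, at 30.8 CPM.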

How the data were processed

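RNA was extracted with a Zymo Microprep kit and its cDNA was amplified with Ovation RNA-seq System v2 reagents before paired sequencing of 69 bp reads, per the labels' protocols. CASAVA 1.8.2, edgeR and the mouse build mm10 are named in the submitters' processing notes. No source used here gives the aligner, the counting tool or its strand setting, so reads of close paralogs and of overlapping or antisense genes may be shared. The authors' deposited table holds raw counts per gene for all 12 libraries, with the authors' log2 fold changes, p-values and false discovery rates. A further 30 per-sample columns were not used.

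Counts were fitted with edgeR 4.0.16 in R 4.3.3 by its quasi-likelihood test over all 12 libraries in 4 groups, 3 libraries each. Genes were filtered with filterByExpr and scaled with TMM factors. The contrast was stroke minus P4, with Benjamini-Hochberg adjustment over the 17909 genes tested and a threshold of 0.05. The procedure was tested on simulated counts. CPM values use the TMM library sizes. The SE is the log2 fold change divided by the root of the F statistic. Total counts of the 6 libraries ran from 17544485 to 48633350, and intervals for genes with 1 to 3 counts in a group cover counting error only. Of the gene symbols, 22921 matched RefSeq GRCm38.p6, from which coordinates and promoters were taken. The motif, GAAA and GAAA with any 2 bases between, was searched on both strands.

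Genes were described by 62 lists, of which 3 symbols were not found in the table. The members and lists were chosen with earlier results of these data known. Named genes were the 12 with the largest log2 fold change in each direction among called genes whose groups did not overlap and whose higher group had at least 5 CPM. The 3 called members of each list with the largest log2 fold change in each direction and that same level were added, or the 2 with the smallest p where none was called, with a set of fixed genes. The text names fewer than this rule takes, and some genes are not reported here. Chosen after their values were seen were Aqp4, B2m, Bdnf, Csf1, Cx3cr1, Dclk1, Dlg4, Dpysl3, Eno2, Enpp6, Fos, Gng4, Gpr17, Gria3, Igf1, Igfbpl1, Il1b, Irf7, Isg15, Jun, Kcna2, Klf7, Map1b, Marcksl1, Nrep, Oasl2, P2ry12, Pdgfra, Rorb, Rtn4, Scn2a1, Scn3a, Slc17a7, Slc1a2, Snap25, Sox4, Spp1, Srrm4, Syt1, Top2a, Tuba1a, Tubb2b, Tubb5 and Vcan. Alternatives were other scalings and filters, DESeq2 1.42.0, limma-voom (limma 3.58.1), the 6 libraries alone, replicate blocks, a fold threshold, each library left out, and counts without the 45S entry. A fit without chromosomes X and Y was chosen after the data were seen.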

Additional observations from a re-analysis of the deposited data

How the results depend on the processing

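No gene called in the reported fit changed sign under any alternative tried. Of 3359 calls, 3209 were kept with DESeq2 size factors, 3172 with upper quartile scaling and 3138 with total counts or no low-count filter. The largest shifts were in the lower genes, 1422 as reported, against 2309 by the DESeq2 test and 2209 in the fit of the 6 libraries alone. That last fit, without the adult control and siRNA libraries, called 4789 genes in both directions. A test against a log2 fold change of 1 called 2001 genes, 702 of them lower. Leaving out 1 library at a time gave 2401 to 2905 genes, 1382 to 1742 of them higher and 882 to 1163 lower, with fewer libraries in each fit. With the replicate number as a block, 2463 genes passed over 12 libraries and 4567 over 6. Libraries of stroke and P4 with the same number had correlations of their deviations of 0.16, 0.0136 and 0.153 for numbers 4, 5 and 6. Those with unlike numbers ran from -0.175 to 0.151. The numbers were not taken as pairs in the reported fit, and these values do not settle whether they are. Leaving out chromosomes X and Y gave 3232 genes. Of 140 called genes named in the text, 132 were called in each fit that left out 1 library, and the others are given with their values above. Genes that did not pass and were near 0 changed sign. With 1 library left out at a time, the log2 fold change ran from -0.04 to 0.87 for Eno2, -0.65 to 0.11 for Gria3, -1.13 to 0.06 for Snap25, -0.22 to 0.78 for Sox4, -0.09 to 1.71 for Mki67 and -0.14 to 0.80 for Rtn4. With upper quartile scaling Rtn4 was at -0.02. Of the genes that did not pass, Dlg4 passed in 2, Igf1 in 3, Lin28b in 4, Isg15 in 5 and Klf7 in 6 of 19 alternatives. The cause of these shifts was not tested. Amplified reads carry no molecular identifiers, and genes at a few counts, such as Gdf10 in stroke, are limited by depth.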
